A study of Mus musculus with 6 samples.

Results

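The interleukin-1 family is a set of 9 mouse genes here, chosen by symbol: the ligand genes Il1a, Il1b, Il18 and Il33, the genes of the soluble inhibitors Il1rn and Il18bp, and the receptor genes Il1r1, Il1rap and Il1rl1. The set was chosen with earlier results of these data known, so its counts and medians are descriptions. Of these 9, 8 were among the 14147 genes analysed, and Il1rl1, which encodes the receptor that binds interleukin-33, was not analysed here. Transcripts were measured by RNA sequencing in primary mouse astrocytes, described as wild type (WT), at 24 h. The cells of 3 libraries had been given human IgG against aquaporin-4, the main water channel of astrocytes (AQP4-IgG), and those of the other 3 a human control IgG (Control-IgG). Strain, age and IgG dose are not given in the labels, and the labels do not tell whether each library is its own culture or animal. The p-values therefore rest on the spread among libraries that may be technical replicates. The title of the series mentions conditioned medium, and whether the IgG acted on these cells directly is not stated.

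Interleukin-1 alpha and interleukin-1 beta are inflammatory cytokines that bind the same receptor, the product of Il1r1, which then recruits the accessory protein encoded by Il1rap and signals through MyD88 to NF-kB. The interleukin-1 receptor antagonist, encoded by Il1rn, occupies that receptor without recruiting the accessory protein. Interleukin-18 is held in check by the soluble binding protein encoded by Il18bp, and interleukin-33 is a nuclear alarmin released from damaged cells that also uses the accessory protein. In the brain microglia are a main source of interleukin-1, and astrocytes carry its receptor and respond with chemokines and acute-phase proteins.

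The bases upstream of the start of 4 of the genes are shown, because Il1a and Il33 were the members that rose and Il1rn and Il1rap the members whose start windows held a motif searched for. Each line gives 250 bases that end just before the RefSeq start nearest to the gene start in the table, 5′ to 3′ on the strand of the gene, in GRCm38.p6, with a match to the NF-kB-like letters in capitals.
Il1a, minus strand, chr2:129309973-129310222: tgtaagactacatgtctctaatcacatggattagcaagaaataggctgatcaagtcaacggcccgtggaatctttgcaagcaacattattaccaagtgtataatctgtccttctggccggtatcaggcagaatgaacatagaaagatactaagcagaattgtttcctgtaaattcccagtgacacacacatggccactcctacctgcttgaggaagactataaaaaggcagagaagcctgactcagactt
Il33, plus strand, chr19:29924863-29925112: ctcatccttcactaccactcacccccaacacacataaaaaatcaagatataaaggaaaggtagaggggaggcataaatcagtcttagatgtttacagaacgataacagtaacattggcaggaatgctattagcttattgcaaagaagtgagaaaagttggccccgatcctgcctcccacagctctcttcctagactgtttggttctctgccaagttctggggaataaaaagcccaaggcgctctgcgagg
Il1rn, plus strand, chr2:24336610-24336859: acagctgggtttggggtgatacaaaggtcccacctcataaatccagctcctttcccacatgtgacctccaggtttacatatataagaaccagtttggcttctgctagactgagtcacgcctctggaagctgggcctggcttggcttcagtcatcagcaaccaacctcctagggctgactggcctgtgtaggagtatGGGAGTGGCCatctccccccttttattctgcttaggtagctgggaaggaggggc
Il1rap, plus strand, chr16:26581455-26581704: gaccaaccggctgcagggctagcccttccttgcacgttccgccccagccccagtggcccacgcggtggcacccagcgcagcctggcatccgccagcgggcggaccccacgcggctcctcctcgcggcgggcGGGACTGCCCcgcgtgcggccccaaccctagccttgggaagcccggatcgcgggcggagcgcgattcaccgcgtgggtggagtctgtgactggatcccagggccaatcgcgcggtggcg

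All 9 genes had at least 1 such window in the RefSeq table, 14 windows in all, each with 250 bases before and 50 bases from the start. An NF-kB-like motif, GGGA and CC with any 4 bases between, and an interferon response-like motif, GAAA and GAAA with any 2 bases between, were searched on both strands over the 300 bases. The NF-kB-like letters were found in 1 window of Il1rn as GGGAGTGGCC and in the window of Il1rap as GGGACTGCCC, and in 20.7% of all 32851 windows. The interferon response-like letters were found in Il1rap alone, as GAAAAAGAAA in the 50 bases that follow the start, and in 3.44% of all windows. The windows of Il1a, Il1b, Il18, Il33, Il18bp, Il1r1 and Il1rl1 and the other windows of Il1rn held neither set of letters. This says only that the letters are not in these windows.

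The values are FPKM, reads scaled by exon length and by library total, and whole reads recovered from them put the libraries at 17.9 to 20.6 M reads. Astrocyte transcripts were abundant in both groups. The summed level of the 16 astrocyte markers analysed ran from 797 to 900.2 FPKM with AQP4-IgG and from 717 to 811 FPKM with Control-IgG. Of these 16, the water channel gene Aqp4 and the glutamate transporter genes Slc1a2 and Slc1a3 rose (adjusted p = 0.0216, 0.0464 and 0.0304 in limma), 0 fell and 13 did not pass, with a median log2 fold change of 0.12. The groups did not overlap for 5 of the 16, all with AQP4-IgG the higher, as was so for 10.4% of all genes tested. Among all genes tested 1.46% rose and 0.632% fell. Microglia and macrophage transcripts were present as well, and the summed level of 22 markers ran from 1316 to 1493 FPKM and from 1335 to 1692 FPKM. Of 10 fibroblast and mural cell markers, 1 fell, the smooth muscle actin gene Acta2, from 2782 ± 147 FPKM with Control-IgG to 2134 ± 173 FPKM with AQP4-IgG (SD, n = 3, adjusted p = 0.0243 in limma), and 9 did not pass. Acta2 made up most of their summed level, 2290 to 2647 FPKM with AQP4-IgG and 2993 to 3269 FPKM with Control-IgG. The groups overlapped for 5 of the 10, among them the collagen genes Col1a1, Col1a2 and Col3a1. For the other 5, Acta2, Tagln, Cnn1, Myh11 and Ogn, every AQP4-IgG library lay below every Control-IgG library. Over all 12334 genes tested, 1058 lay below in this way. The part of the astrocyte and the fibroblast and mural markers in the results that follow was not tested. In these bulk samples fewer cells of a type and less RNA per cell cannot be told apart, and which cells made the interleukin-1 family transcripts was not tested.

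Transcripts of most of the family were higher with AQP4-IgG. In limma on log2(FPKM + 1), a scale that understates changes of low genes, with the adjusted p taken over 12334 genes, Il1a and Il33 rose, 0 members fell and 6 did not pass. Of all genes tested, 1.46% rose and 0.632% fell. In 7 of the 8 members every AQP4-IgG library lay above every Control-IgG library, as was so for 10.4% of all genes tested, and the exception was Il1r1. The median log2 fold change of the 8 members was 0.43, against 0.00 over all genes tested. These 7 members also had an unadjusted p under 0.05 in the upward direction, as had 7.64% of all genes tested. Tested genes have a mean over all libraries of 1 FPKM or more. Il1a, Il1b, Il1rn and Il18bp have control means of 0.757, 0.727, 0.772 and 0.972 FPKM and reach it only through the AQP4-IgG group. Their tests and their part in these counts therefore carry no weight. With no filter Il1a did not pass (adjusted p = 0.0522 in limma).

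**Figure D1:**
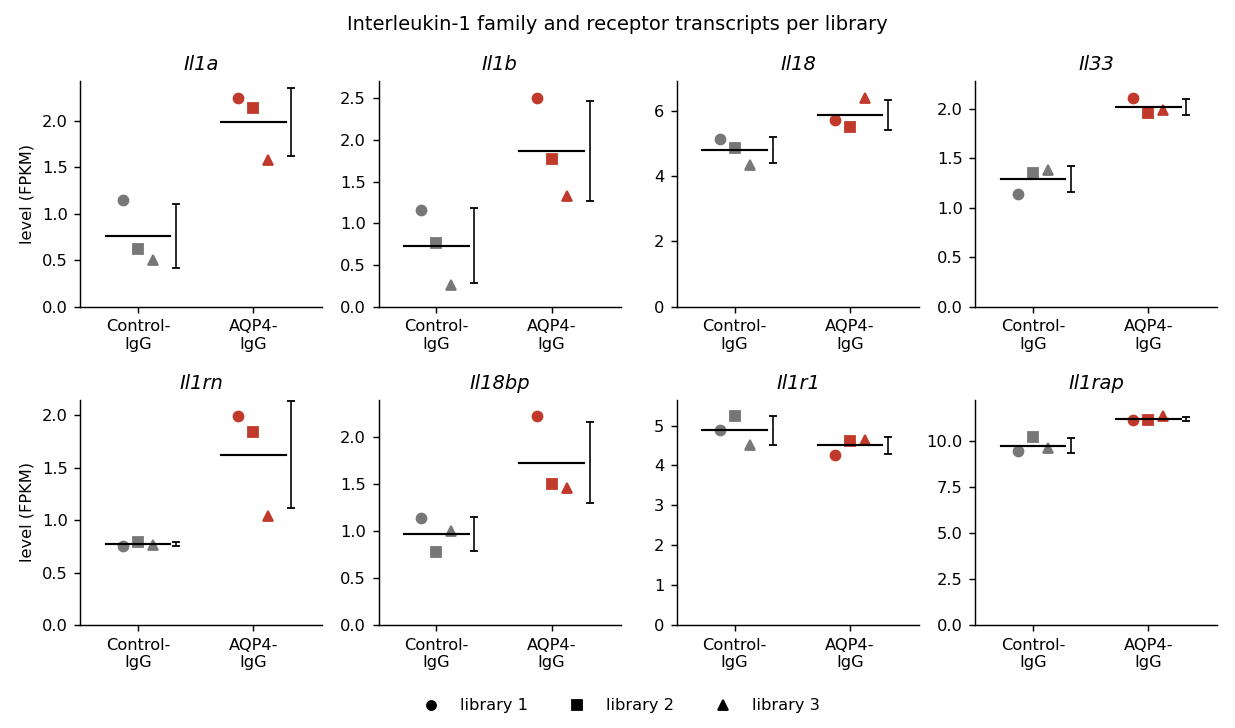
Level in FPKM (vertical axes, from 0) of the 8 genes in each library, grey for Control-IgG and red for AQP4-IgG, with the group mean as a line and the SD (n = 3) as a bar. The groups overlap only for Il1r1, and library 1 of the AQP4-IgG group is the highest of all 6 for Il1a, Il1b, Il1rn, Il18bp and Il33.

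Il1a encodes the interleukin-1 alpha precursor, which can signal without being cut. Its gene (ENSMUSG00000027399) lies on the minus strand of chromosome 2, 129299610 to 129309972 in GRCm38, with 7 exon blocks. Il1a measured 2.25, 2.14 and 1.57 FPKM in AQP4-IgG libraries 1 to 3 and 1.15, 0.622 and 0.505 FPKM in Control-IgG libraries 1 to 3. The groups did not overlap, and library 1 was the highest of each group. The mean was 1.99 ± 0.362 FPKM (SD, n = 3) against 0.757 ± 0.341 FPKM (SD, n = 3), 2.62-fold higher, and differed by 0.77 on the log2 scale (SE 0.148, adjusted p = 0.0408 in limma). The control mean is under the 1 FPKM limit of the test, which Il1a reaches only through the AQP4-IgG group. The call of Il1a rested on few reads, 64 to 91 per AQP4-IgG library and 20 to 46 per Control-IgG library. It ended without AQP4-IgG 1, AQP4-IgG 2, Control-IgG 2 or Control-IgG 3, with limma's adjusted p of 0.158, 0.158, 0.163 and 0.127. It held without AQP4-IgG 3 and without Control-IgG 1, with limma's adjusted p of 0.0451 and 0.00558. It also ended without a variance trend, without the filter on low values and with a pseudocount of 0.1 or 0.01, with limma's adjusted p of 0.0736, 0.0522, 0.0545 and 0.0572.

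Il1b encodes interleukin-1 beta, which caspase-1 cuts to its active form, and lies beside Il1a on the same strand of chromosome 2 (ENSMUSG00000027398, 129364570 to 129371139). Il1b measured 2.51, 1.77 and 1.32 FPKM in the AQP4-IgG libraries and 1.16, 0.761 and 0.261 FPKM in the Control-IgG libraries. The lowest value with AQP4-IgG stood close to the highest control value, and the spread within each group was the widest of the family relative to its mean. The mean was 1.87 ± 0.597 FPKM (SD, n = 3) against 0.727 ± 0.45 FPKM (SD, n = 3). With a ratio of 2.57, near that of Il1a, and a log2 fold change of 0.75 (SE 0.226), Il1b did not pass limma's test (adjusted p = 0.201). Control-IgG 3 held 10 Il1b reads, for which the exact Poisson 95% interval is 4.8 to 18.4 and covers counting error only. The sum of Il1a and Il1b was 4.75, 3.91 and 2.9 FPKM in the AQP4-IgG libraries and 2.3, 1.38 and 0.766 FPKM in the Control-IgG libraries. AQP4-IgG 3 and Control-IgG 1 were thus the closest libraries of the opposite groups.

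Il33 differed less than Il1a, with a smaller spread within each group. Its gene (ENSMUSG00000024810, plus strand of chromosome 19, 29925114 to 29960718) has 10 exon blocks. Il33 measured 2.11, 1.95 and 1.98 FPKM in the AQP4-IgG libraries and 1.14, 1.35 and 1.38 FPKM in the Control-IgG libraries. Control-IgG 1, the highest control for Il1a and Il1b, was the lowest control here. The level with AQP4-IgG was 1.56-fold that with Control-IgG, a difference of 0.4 on the log2 scale (SE 0.0762, adjusted p = 0.038 in limma), from 115 to 125 reads per AQP4-IgG library and 67 to 80 per Control-IgG library. The call ended whichever library was left out, and limma's adjusted p became 0.155, 0.14 and 0.0967 when AQP4-IgG 1, 2 and 3 were dropped in turn, and 0.0668, 0.111 and 0.087 for Control-IgG 1, 2 and 3. The log2 fold change stayed between 0.35 and 0.43 in these 6 fits.

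Il18 was the most abundant ligand transcript per exon length. It encodes interleukin-18, another precursor cut by caspase-1, on the plus strand of chromosome 9 (ENSMUSG00000039217, 50554827 to 50581840). Il18 measured 5.72, 5.52 and 6.4 FPKM in the AQP4-IgG libraries and 5.15, 4.87 and 4.35 FPKM in the Control-IgG libraries. The groups stood apart by a narrow margin, and AQP4-IgG 3, the lowest of its group for Il1a, Il1b and Il1rn, was the highest for Il18. The mean was 5.88 ± 0.462 FPKM (SD, n = 3) against 4.79 ± 0.405 FPKM (SD, n = 3), a log2 fold change of 0.25 that did not pass (SE 0.074, adjusted p = 0.162 in limma).

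The inhibitors stood higher with AQP4-IgG without passing the test. Il1rn, on the plus strand of chromosome 2 (ENSMUSG00000026981, 24336853 to 24351494), measured 1.99, 1.84 and 1.04 FPKM in the AQP4-IgG libraries and 0.755, 0.796 and 0.765 FPKM in the Control-IgG libraries. The control libraries agreed closely, whereas AQP4-IgG 3 stood nearer to the controls than to the other libraries of its group. The mean was 1.63 ± 0.51 FPKM (SD, n = 3) against 0.772 ± 0.0216 FPKM (SD, n = 3), 2.11-fold higher, a difference of 0.55 on the log2 scale (SE 0.138, adjusted p = 0.1 in limma). Without AQP4-IgG 3 the log2 fold change was 0.72 and passed (adjusted p = 0.0167 in limma).

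Il18bp, which encodes the interleukin-18 binding protein (ENSMUSG00000070427, minus strand of chromosome 7, 102014885 to 102018690), measured 2.22, 1.51 and 1.46 FPKM in the AQP4-IgG libraries and 1.14, 0.774 and 1 FPKM in the Control-IgG libraries. The groups did not overlap, and library 1 was the highest of each. The ratio of the means was 1.78 and the log2 fold change 0.46 (SE 0.123, adjusted p = 0.117 in limma).

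The receptor subunits did not pass the test. Il1rap, the shared accessory chain (ENSMUSG00000022514, plus strand of chromosome 16, 26581704 to 26730117), measured 11.2, 11.1 and 11.3 FPKM in the AQP4-IgG libraries and 9.44, 10.2 and 9.64 FPKM in the Control-IgG libraries. All AQP4-IgG values lay above all controls with little spread, and 2075 to 2657 reads per library stood behind them, the most of the family. The mean was 1.15-fold higher, a log2 fold change of 0.18 that did not pass (SE 0.0472, adjusted p = 0.103 in limma). It passed in limma-voom on the recovered reads and in its quantile-normalized form (adjusted p = 0.017 and 0.0287). Il1r1, the ligand-binding chain (ENSMUSG00000026072, plus strand of chromosome 1, 40225080 to 40317257), measured 4.26, 4.61 and 4.65 FPKM in the AQP4-IgG libraries and 4.89, 5.23 and 4.51 FPKM in the Control-IgG libraries. The groups overlapped, and AQP4-IgG was the higher in 2 of 9 pairs of libraries (log2 fold change -0.09, SE 0.0659, adjusted p = 0.649 in limma). The standing of Il1r1 as the lower and Il1rap as the higher with AQP4-IgG held in the median-scaled values too.

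**Figure D2:**
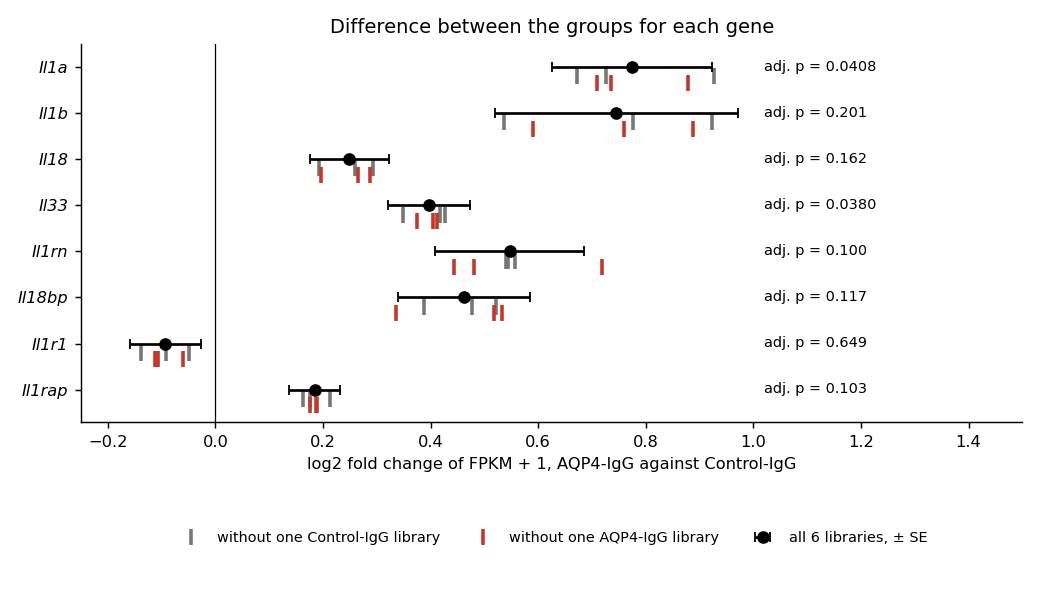
Log2 fold change of FPKM + 1, AQP4-IgG against Control-IgG, for each gene (horizontal axis), as a black point with its SE and the adjusted p beside it, and as ticks with 1 library left out in turn. Each gene keeps its sign in all 6 such fits, with Il1a between 0.67 and 0.93 and Il1b between 0.54 and 0.92.

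Levels per exon length put Il1rap highest in both groups, at 11.2 ± 0.114 FPKM (SD, n = 3) and 9.75 ± 0.392 FPKM (SD, n = 3). Il18 and Il1r1 followed. Their ranges did not overlap with AQP4-IgG, where Il18 was the higher, and overlapped with Control-IgG. With AQP4-IgG the ranges of Il33, Il1a, Il1b, Il18bp and Il1rn each overlapped that of the next in this order, between means of 2.02 and 1.63 FPKM. With Control-IgG, Il33 had the highest mean of the remaining 5 genes, 1.29 FPKM. Its range lay above those of Il18bp and Il1rn and met those of Il1a and Il1b at their highest library, Control-IgG 1. The ranges of Il18bp, Il1rn, Il1a and Il1b overlapped from each to the next. The lengths used run from 1031 bases for Il18 to 11360 bases for Il1rap and count every annotated exon, so a gene read mainly as a shorter transcript has its level understated.

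Ratios between members were formed within each library and are described without a test, since 3 against 3 libraries cannot give a p under 0.1 in an exact permutation test. The ratio of accessory chain to ligand-binding chain, Il1rap over Il1r1, was added after the values were seen. It was 2.62, 2.42 and 2.44 in the AQP4-IgG libraries and 1.93, 1.95 and 2.14 in the Control-IgG libraries. The groups did not overlap. The ratio of antagonist to agonists, Il1rn over the sum of Il1a and Il1b, was 0.419, 0.471 and 0.36 in the AQP4-IgG libraries and 0.327, 0.576 and 0.999 in the Control-IgG libraries. These groups overlapped, and the highest control ratio was that of Control-IgG 3, the library with the lowest Il1a and Il1b. Il18bp over Il18 was 0.389, 0.273 and 0.228 in the AQP4-IgG libraries and 0.221, 0.159 and 0.231 in the Control-IgG libraries, which also overlapped.

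Microglia marker transcripts as a list were not higher with AQP4-IgG. Of 21 markers tested, 0 rose, Cx3cr1, the fractalkine receptor, fell (log2 fold change -0.51, adjusted p = 0.0427 in limma), and 20 did not pass. Their log2 fold changes had a median of -0.08. Every AQP4-IgG library lay below every Control-IgG library for 5 of them, Cx3cr1, Csf1r, Trem2, C1qb and C1qc. For 1, Itgam, every AQP4-IgG library lay above, and the groups overlapped for 15. Over all 12334 genes tested, 1058 lay below and 1288 above in this way. Lyz2, C1qa and C1qb, the most abundant, averaged 825, 83.7 and 77.7 FPKM with AQP4-IgG and 833, 97.6 and 92.1 FPKM with Control-IgG. Control-IgG 1 had the highest summed marker level, 1692 FPKM, and also the highest control level of 4 members, Il1a, Il1b, Il18 and Il18bp. It had the lowest control level of 3 members, Il1rn, Il33 and Il1rap. The part of these markers in those values was not tested. Taken per 1000 FPKM of the summed markers, Il1a was 1.51, 1.62 and 1.13 FPKM in the AQP4-IgG libraries and 0.677, 0.466 and 0.368 FPKM in the Control-IgG libraries. On that scale the groups did not overlap for Il1a, Il1b, Il1rn, Il18, Il33 and Il18bp, while those of Il1rap and Il1r1 did. With Lyz2, the most abundant marker, left out of the sum, Il1rap also separated, at 18.2 to 20.4 FPKM against 12.9 to 17.3 FPKM, and of the 8 genes only Il1r1 overlapped. The full sum differed little between the groups, 1399 ± 89.0 FPKM with AQP4-IgG against 1467 ± 196 FPKM with Control-IgG (SD, n = 3). Dividing by either sum therefore cannot tell which cells made these transcripts, which was not tested.

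**Figure D3:**
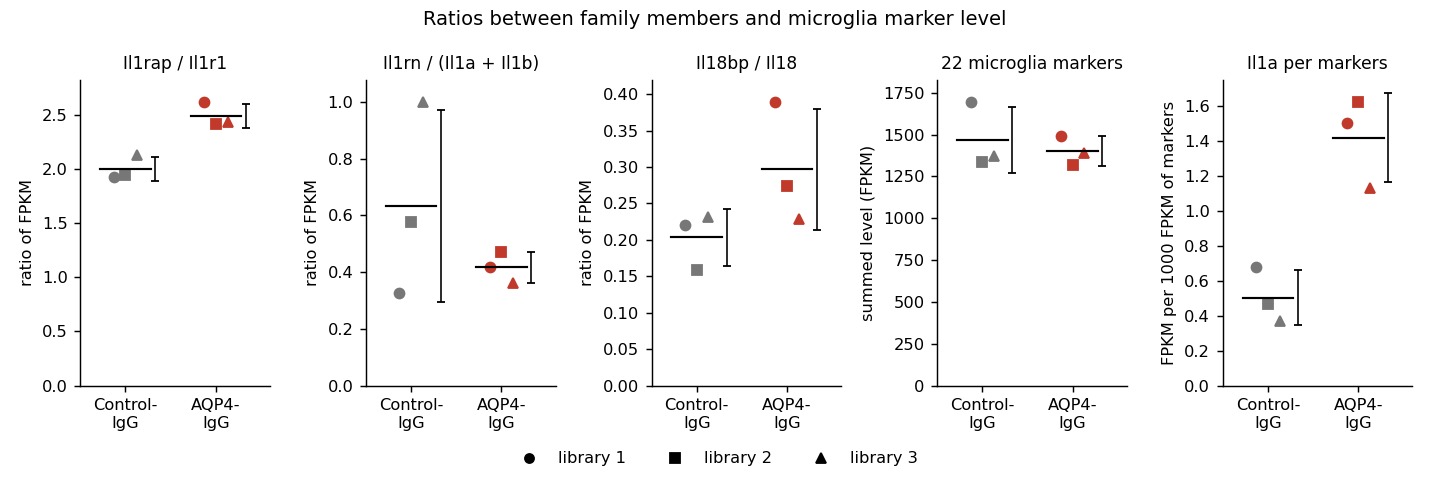
Ratios of FPKM between family members, the summed level of 22 microglia markers in FPKM, and Il1a per 1000 FPKM of those markers (vertical axes, from 0), in each library, with the group mean as a line and the SD (n = 3) as a bar. Il1rap over Il1r1 and Il1a per marker level separate the groups, with the lowest AQP4-IgG value of Il1rap over Il1r1 at 2.42 and the highest control value at 2.14.

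The remaining ligands and receptors of the family were mostly not analysed here. Of 17 symbols listed for them, Il18rap, the signalling chain of the interleukin-18 receptor, was present, at 0.838, 0.864 and 1.04 FPKM in the AQP4-IgG libraries and 0.786, 0.719 and 0.583 FPKM in the Control-IgG libraries. Its mean over the 6 libraries was under the limit of 1 FPKM for the test. Without that limit limma gave a log2 fold change of 0.17 (adjusted p = 0.499).

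Of 28 genes tested for receptor signalling, 0 passed limma's test in either direction and 1 had an unadjusted p under 0.05, and their median log2 fold change was -0.01. That gene was the adaptor Myd88, at 10.6 ± 0.54 FPKM (SD, n = 3) against 8.55 ± 1.23 FPKM (SD, n = 3) (log2 fold change 0.29, adjusted p = 0.178), which passed without Control-IgG 1 (adjusted p = 0.017). Of 14 genes for NF-kB subunits and their feedback inhibitors, 0 passed and the median was 0.22. In this list 5 genes had an unadjusted p under 0.05, as had 13.3% of all genes tested in either direction. The count for receptor signalling was 1 without Control-IgG 1, which was Myd88. It was also 1 without Control-IgG 2, for another gene, which was lower with AQP4-IgG. Limma-voom on recovered reads called 0 of the receptor signalling genes and 2 of the NF-kB genes. Nfkbiz, which encodes a nuclear co-regulator induced by interleukin-1, averaged 9.08 ± 1.2 FPKM (SD, n = 3) against 5.15 ± 1.36 FPKM (SD, n = 3) (log2 fold change 0.73, adjusted p = 0.112). Without Control-IgG 1 it passed (adjusted p = 0.0118), and the count for the list was then 5.

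Among 13 tested genes for the processing and release of the ligands, 1 rose, 1 fell and 11 did not pass, with a median log2 fold change of 0.01. The shares over all genes tested were 1.46% rising and 0.632% falling. Casp1, which encodes the protease that cuts interleukin-1 beta and interleukin-18, measured 11.9, 10.9 and 11.4 FPKM in the AQP4-IgG libraries and 9.39, 8.16 and 8.09 FPKM in the Control-IgG libraries. The groups did not overlap and the log2 fold change was 0.38 (SE 0.0644, adjusted p = 0.0243 in limma). Capn2, a calpain catalytic subunit, measured 85.0, 85.8 and 88.3 FPKM in the AQP4-IgG libraries and 98.8, 101 and 104 FPKM in the Control-IgG libraries, and fell by 0.23 on the log2 scale (SE 0.0378, adjusted p = 0.0216 in limma). Calpain cuts the interleukin-1 alpha precursor, and whether that cutting changed was not tested. Of the other calpain genes listed, Capn1 averaged 5.47 and 5.44 FPKM with AQP4-IgG and Control-IgG, and Capns1 214 and 219 FPKM. The groups overlapped for both (adjusted p = 0.978 and 0.869 in limma), and both were named after their values were seen. The call of Casp1 held without Control-IgG 1 (adjusted p = 0.00558) and ended without AQP4-IgG 1, 2 or 3 (0.11, 0.0734 and 0.065) and without Control-IgG 2 or 3 (0.109 and 0.0952). That of Capn2 held without AQP4-IgG 3 or Control-IgG 1 (adjusted p = 0.0467 and 0.0165) and ended without AQP4-IgG 1 or 2 (0.0997 and 0.116) and without Control-IgG 2 or 3 (0.0904 and 0.0943), and also without a variance trend (0.0693).

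The inflammasome genes ranged widely in level. Nek7, which encodes a kinase that binds NLRP3, averaged 20.2 and 22.8 FPKM with AQP4-IgG and Control-IgG, and the sensor gene Naip2 3.85 and 3.84 FPKM. For Nek7 every AQP4-IgG library lay below every Control-IgG library (log2 fold change -0.17, adjusted p = 0.135 in limma). The sensor Nlrp3 averaged 1.21 ± 0.0161 FPKM (SD, n = 3) against 1.01 ± 0.223 FPKM (SD, n = 3) (adjusted p = 0.614 in limma), and the pore-forming Gsdmd 1.73 ± 0.229 FPKM against 1.68 ± 0.597 FPKM (SD, n = 3). The adaptor Pycard, under the limit for the test, averaged 0.672 and 0.66 FPKM. The sensor genes Naip5 and Aim2, under that limit too, averaged 0.734 and 0.562 FPKM with AQP4-IgG and 0.952 and 0.751 FPKM with Control-IgG. The groups overlapped for Aim2 and not for Naip5. Casp4, the mouse protease of the non-canonical inflammasome, was also under that limit and measured 1.46, 0.727 and 0.758 FPKM in the AQP4-IgG libraries and 0.45, 0.286 and 0.309 FPKM in the Control-IgG libraries (adjusted p = 0.147 in limma without the limit). Casp4 reaches the 0.5 FPKM of listed genes only with AQP4-IgG (control mean 0.348 FPKM), so its test carries no weight. These genes were named after their values were seen.

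Genes that interleukin-1 is known to induce in astrocytes or other cells had the highest median of the lists, 0.93 over 19 tested genes. Of these, 3 rose, 0 fell and 16 did not pass, and for 12 the groups did not overlap, with AQP4-IgG the higher, against 1.46% rising, 0.632% falling and 10.4% not overlapping in that direction among all genes tested. The list was chosen with earlier results of these data known, so its median and counts are descriptions. Of its 28 genes, 20 were among the genes analysed and 19 were tested. Other cytokines induce these genes as well, and their source was not tested. Mmp3, the matrix protease stromelysin, measured 8.66, 8.71 and 6.87 FPKM in the AQP4-IgG libraries and 2.29, 2.17 and 1.74 FPKM in the Control-IgG libraries, a difference of 1.56 on the log2 scale (SE 0.103, adjusted p = 0.000796 in limma) that passed whichever library was left out. The other genes that passed, the adhesion molecule Icam1 and the metalloreductase Steap4, were 2.01- and 6.79-fold higher (adjusted p = 0.0403 and 0.0471 in limma). Both of these calls held without Control-IgG 1 (adjusted p = 0.00177 and 0.00255) and ended without any other library, with adjusted p from 0.0581 to 0.156 for Icam1 and from 0.0561 to 0.186 for Steap4. That of Steap4 also ended with a pseudocount of 0.1 or 0.01 and with limma-voom (adjusted p = 0.0775, 0.0893 and 0.096). The count of 3 was 11 without Control-IgG 1 and 1 without each of the other 5 libraries. The chemokine Ccl20, under the limit for the test, measured 1.44, 1.03 and 1.2 FPKM with AQP4-IgG and 0.242, 0.0393 and 0.0702 FPKM with Control-IgG. Listed genes have a higher group mean of 0.5 FPKM or more, which Ccl20 reaches only with AQP4-IgG (control mean 0.117 FPKM). A test of it would therefore carry no weight, and none is given. Ccl20 was named after its values were seen.

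**Figure D4:**
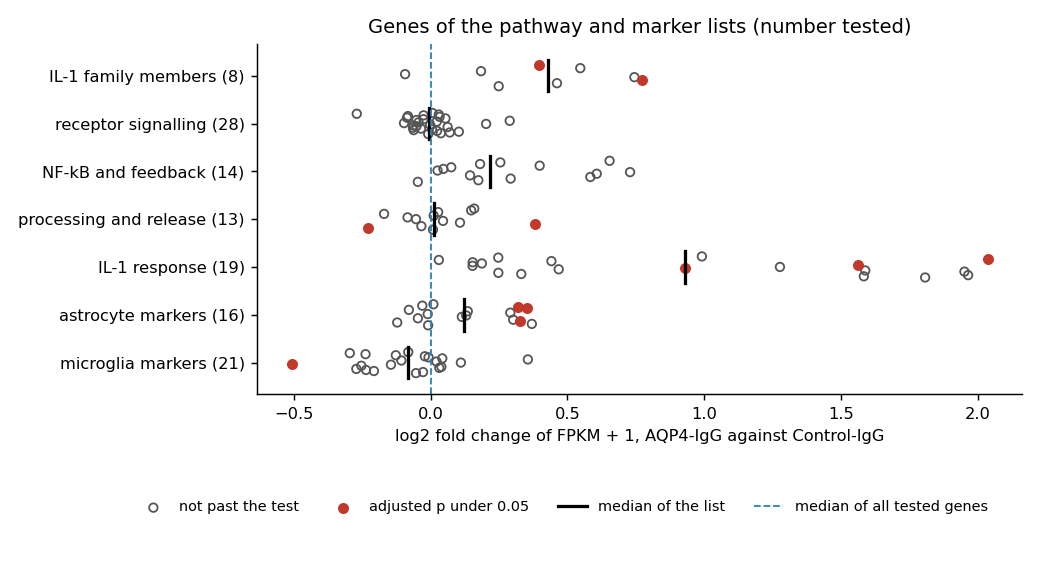
Log2 fold change of FPKM + 1, AQP4-IgG against Control-IgG (horizontal axis), of every tested gene of the family, of 4 pathway lists and of 2 marker lists, filled where the adjusted p is under 0.05, with the median of each list as a bar and that of all tested genes as a dashed line. The family and the interleukin-1 response genes lie mostly to the right, with medians of 0.43 and 0.93, and receptor signalling lies around 0 with a median of -0.01.

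By Pearson's r of log2(FPKM + 1) over the 6 libraries, the genes most like Il1a were H2-T23, Znrf1 and H2-Q4, with r of 0.999, 0.998 and 0.998. H2-T23 and H2-Q4 are class Ib genes of the major histocompatibility complex, a family of close copies whose reads can be shared. Those most like Il33 were N4bp1, Tmem42 and Ppm1f, with r of 0.996, 0.993 and 0.993. These are the highest correlations among the tested genes other than the family itself, predicted genes, pseudogenes and mitochondrial genes, over 6 libraries in 2 groups, and are given as a description.

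In the authors' deposited table Il1a has a log2 fold change of 1.40 and an adjusted p of 0.0256, and Il33 a log2 fold change of 0.61 and an adjusted p of 0.103. The authors' deposited table marks Il1a and Il1b as up, Il1b with a log2 fold change of 1.49, an unadjusted p of 0.00314 and an adjusted p of 0.12. All 110 genes marked up and 42 marked down in the authors' deposited table have an absolute log2 fold change over 1 and an unadjusted p under 0.05, and 0.778% of the listed genes are marked up. Il1rn and Il1rap, with adjusted p of 0.0615 and 0.0573 in the authors' deposited table, are not marked.

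Antisense genes overlap some of these exons. Annotated genes on the other strand share 222 of the 1974 exon bases of Il1a (Gm14023), 25 of the 1907 of Il1b (Il1bos), 552 of the 11360 of Il1rap (Gm20319) and 80 of the 3026 of Il18bp (Numa1). Whether reads were counted by strand is not given in the sources used here, so reads in these stretches cannot be assigned. Numa1 averaged 17.4 ± 0.956 FPKM (SD, n = 3) against 17.1 ± 0.325 FPKM (SD, n = 3), and the other 3 were not analysed here. Of the 50-base stretches of the 8 genes, 0.126% of those of Il1rn and none of the others also occur in transcripts of another gene.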

How the data were processed

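RNA sequencing was done on 6 libraries of primary mouse astrocytes, 3 per group. Per the labels' protocols an RNeasy kit was used for RNA and a SMARTer mRNA-seq kit for libraries. GRCm38 and mm10 are the builds in the submitters' processing notes. Which aligner, counter and annotation were used is not given in the sources used here. The header of the table names no unit. The values were taken as FPKM made by the authors, because values multiplied by GENCODE M21 exon length fell on whole reads in each library, within 0.1 reads for 99.0% to 99.1% of values under 200 reads. The higher group mean of each listed gene is 0.5 FPKM or more. A log2 fold change and a p-value per gene, deposited by the authors, come from their own comparison.

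Columns named for control were matched to Control-IgG 1 to 3 by number. The other 3 columns, named for a case group with the abbreviation of neuromyelitis optica, were taken as AQP4-IgG 1 to 3.

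The test was limma 3.58.1 in R 4.3.3 on log2(FPKM + 1), with a trend and robust variance estimation, over the 12334 genes whose mean over all libraries reached 1 FPKM (1813 did not). Calls required a Benjamini-Hochberg adjusted p under 0.05. Replicate pairs differed beyond sampling noise, with a chi-square per gene of 3.7 to 6.79. On simulated data with 11533 genes fitted for this comparison, with 1 common dispersion, the test recovered 68% of changes of 1.25-fold, 94% at 1.5-fold, 100% at 2-fold and 97.9% at 4-fold, and 11 of its 188 calls were false. The changed genes were drawn at random from genes of 1 FPKM or more, with no effect shared by the genes of a library. These shares need not hold for genes of few reads or wide spread, such as Il1b, which did not pass at 2.57-fold.

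The genes of the family and the lists were chosen with earlier results of these data known, so they are described by counts and medians without a set test. The genes named beyond the family were, for each pathway list, up to 3 past the test with the smallest p, or else the 1 with the smallest p, and, for markers, the most abundant. For each member past the test the 3 genes most correlated with it were named, leaving out predicted genes. The microglia, astrocyte and pathway lists are described in the report. The 6 oligodendrocyte, 4 neuron, 10 fibroblast and mural and 3 endothelial markers analysed had summed group means, with AQP4-IgG and with Control-IgG, of 234 and 254, 88.0 and 89.3, 2448 and 3166, and 5.19 and 4.6 FPKM. The groups did not overlap for the oligodendrocyte sum (222 to 242 against 248 to 260 FPKM) or for the endothelial sum (4.93 to 5.48 against 4.43 to 4.85 FPKM), overlapped for the neuron sum, and the 12 neutrophil and lymphocyte markers were not analysed here. Alternatives were other scaling, filters, pseudocounts and variance settings, limma-voom on recovered reads (12782 genes), a block for the replicate number, and leaving out each library.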

Additional observations from a re-analysis of the deposited data

How the results depend on the processing

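The log2 fold change of each of the 8 members kept its sign in every alternative in which it could be computed. With 258 genes past the threshold, limma-voom on recovered reads gave 548, its quantile-normalized form, fitted with no robust variance step, 529, and leaving out 1 library 55 to 391. For the 2 members past the threshold (Il1a and Il33), leaving out 1 library gave 0 to 2. The count was 1 without a trend, 1 with no filter, 1 with a pseudocount of 0.1 and 1 with a pseudocount of 0.01, and a mean of at least 10 FPKM, which left 1 member to test, gave 0. It was 4 with limma-voom (Il1a, Il33, Il1rap and Il18bp) and 4 with its quantile-normalized form (Il1a, Il33, Il1rn and Il1rap). Il1a passed in 7 of 15 alternatives and Il33 in 9 of 15. For the 5 pathway genes past the threshold the count was 11 without robust variance estimation, 8 with no filter, 11 with limma-voom, 19 with its quantile-normalized form and 1 to 19 with 1 library left out. With the replicate number as a block the counts were 607 genes, 4 members (Il1a, Il1b, Il33 and Il18bp) and 20 pathway genes. The numbers were not taken to pair the samples, because the labels do not say that equal numbers share an animal or day. Deviations of same-numbered libraries correlated at 0.2, 0.00891 and 0.202 for numbers 1, 2 and 3. Those of libraries with different numbers correlated at -0.268 to 0.0818. The libraries numbered 1 and 3 correlated best with their own number in the other group, and those numbered 2 did not. These values do not decide whether the numbers pair the samples. Depth limits Il1a and Il1b most, with 10 to 98 reads per library.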
